A study of Caenorhabditis elegans with 29 samples.

Results

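The genes described here carry out or control programmed cell death and corpse removal in Caenorhabditis elegans. They are cep-1, egl-1, ced-13, ced-9, ced-4, ced-3, ced-1, ced-6, ced-7 and ced-10. They were taken by gene name, in a choice made with earlier results of these data known. The table, which lists 45627 genes, holds all 10.

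In a dying worm cell the BH3-only proteins EGL-1 and CED-13 bind CED-9, a relative of mammalian Bcl-2 that otherwise holds CED-4 in check. Freed CED-4 activates the caspase CED-3. Corpses are then taken up along a pair of partly parallel routes that meet at the GTPase CED-10, one of which runs through the receptor CED-1, the adaptor CED-6 and the transporter CED-7. In the adult hermaphrodite gonad many germ cells die late in meiotic prophase without EGL-1 or CEP-1, while DNA damage adds deaths that need the p53 relative CEP-1, and the sheath cells of the somatic gonad engulf the corpses.

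RNA of gonads dissected from worms kept at 24 °C was sequenced in 29 libraries of 10 groups. In the RNAi part (7 groups, n = 3 each), all worms were of strain DP132, which carries the integrated array edIs6 on chromosome IV: unc-119::gfp under the unc-119 promoter, active in neurons, with the marker rol-6. They ate HT115 bacteria with an empty vector (control) or with dsRNA against 4 genes, the helicases glh-1 and glh-4 and the scaffold genes pgl-1 and pgl-3, whose products build P granules, the RNA-protein granules of germ cells. Feeding began in the parents, and gonads of the offspring were dissected in the fourth larval stage (L4), 1 day later (Day 1) and 2 days later (Day 2). L4 and Day 1 RNAi gonads were GFP-negative by label, and Day 2 RNAi gonads were sorted by eye into GFP-negative and GFP-positive. The mutant part held Day 1 gonads of wild type SS1174 (n = 3), glh-1(gk100) I SS0804 (n = 2) and SS0002, which is pgl-1(ct131) him-3(e1147) IV (n = 3) and so also carries an allele of him-3, a meiotic chromosome axis gene. Each library pooled many gonads (75 to 100 for RNAi controls, 125 to 150 for RNAi). Control adults were fertile and RNAi adults sterile, sterility could not be scored at L4, and stunted RNAi gonads were kept whole while the others were cut at the bend, so the gonad regions in a library and the RNAi group cannot be told apart.

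The table gives an average per group, from which the whole reads of each library were recovered. Within a group the deepest library is called a, the next b and the shallowest c, and values are normalized reads, that is reads divided by a factor per library that puts all libraries of a part on the same scale. Libraries held 1006411 to 9121497 reads on genes. Library a stands apart in both L4 groups. In L4 control it held the 10 oocyte marker genes at a summed 14533 normalized reads against 25695 and 28642 in b and c, and the 10 sperm genes at 3286 against 1694 and 1778. In L4 RNAi it held oocyte genes at 10267 against 31864 and 31117, muscle genes at 16366 against 4050 and 4352 and hypodermis genes at 12559 against 3125 and 3273. Both Day 1 libraries c, of control and of RNAi, stand apart: at an even depth of 1006411 reads they would hold reads on 16677 and 19256 genes, against 9816 and 10518 in the other Day 1 controls and 13535 and 14326 in the other Day 1 RNAi libraries. The targeted genes checked the labels, since pgl-1 lay at 1885 to 2648 normalized reads in the control libraries and at 4.36 to 161 in the RNAi libraries. Of the L4 RNAi libraries, b kept the most of each target. It held pgl-1 at 161 against 18.9 in a and 8.90 in c, and pgl-3 at 157 against 49.5 and 57.8. For glh-1 these values were 435 against 103 and 73.4, and for glh-4 187 against 69.4 and 62.3. In the mutant part pgl-1 lay at 122.2 to 308 in the pgl-1 libraries and at 1113 to 2339 in wild type. glh-1 lay at 1942 and 2311 in the libraries labelled glh-1 and at 954 to 2218 in wild type, so reads over the whole gene do not check that label. The kit does not mark strand, and in the reference annotation exons of ced-6 overlap wdr-37 and exons of ced-7 overlap C48B4.13 on the opposite strand. Reads of these pairs cannot be told apart; wdr-37 reached a group average of 330, close to ced-6 itself, and C48B4.13 one of 5.56.

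All members except ced-13 had reads in every group. Per kilobase of exon, the Day 2 control gonads held most ced-3 (419 normalized reads per kilobase), followed by ced-9 at 277, ced-7 at 256, ced-6 at 185, ced-10 at 158, ced-1 at 139.6, ced-4 at 118.6 and cep-1 at 109.7 on the same scale. The BH3-only genes were the lowest, with egl-1 at 27.9 normalized reads per kilobase and ced-13 at 0. Over the 7 RNAi-part groups, the highest group mean was 1.3 times the lowest for ced-7 and 1.32 times for ced-4. For the other members with reads in each group this ratio ran from 1.63 (ced-10) to 2.48 (egl-1).

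**Figure D1:**
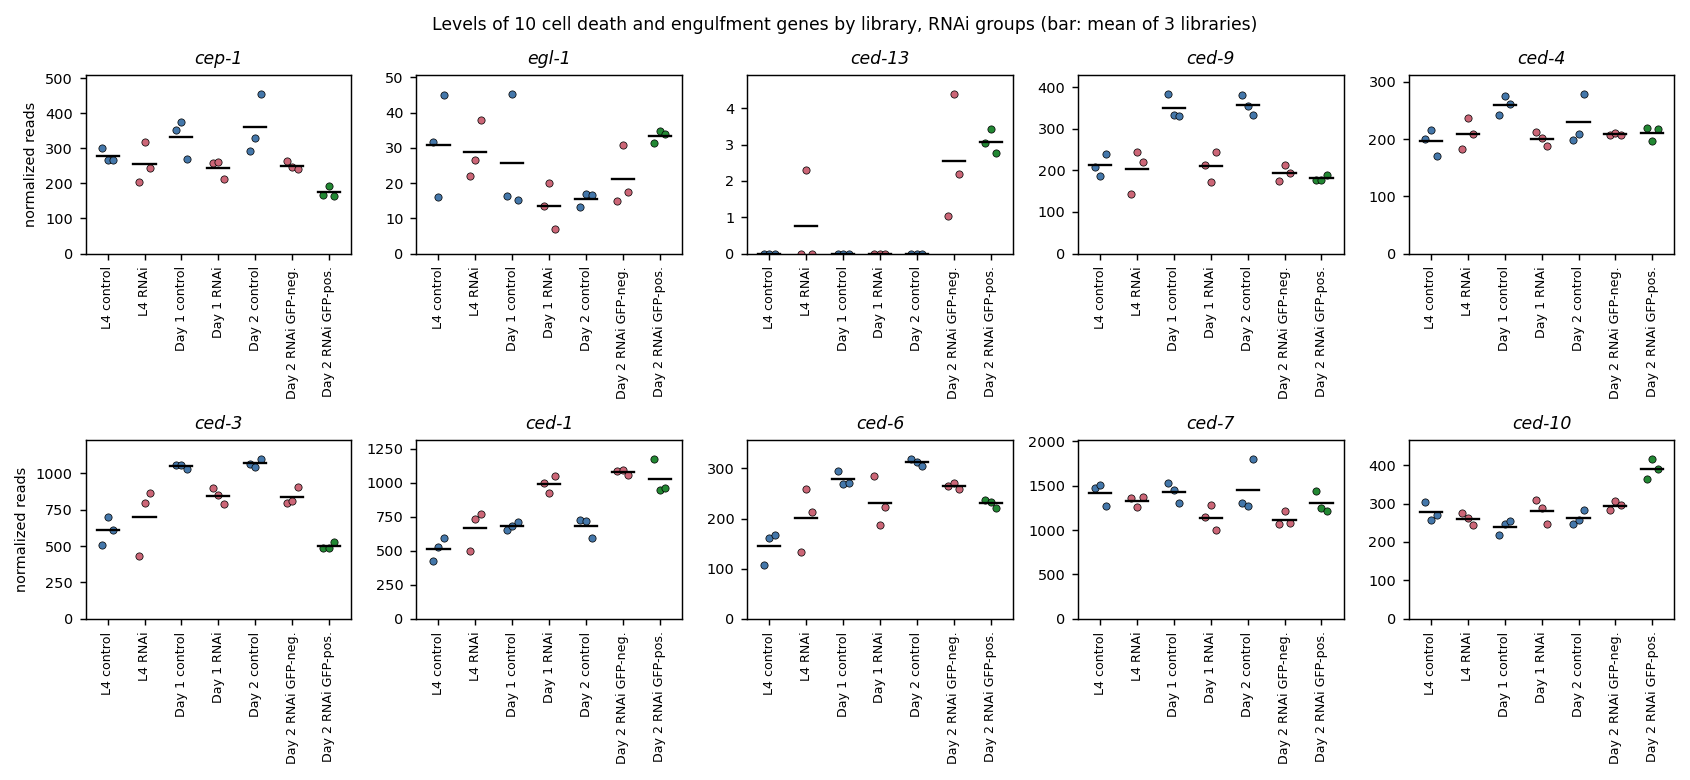
Normalized reads of each member in the 7 groups of the RNAi part, with 1 point per library and the mean as a horizontal line; values with ± give the SD (n = 3). ced-9 and ced-3 lie lower in the Day 2 RNAi groups than in Day 2 control (ced-3 501 ± 21.5 in GFP-positive against 1069.9 ± 27.3), ced-1 lies higher (1029 ± 128 against 680.5 ± 72.96), and ced-13 is near 0 throughout.

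From L4 to Day 1, control gonads gained reads of the caspase and of its inhibitor. The L4 control libraries a, b and c held ced-9 at 209, 187 and 239.6 normalized reads, and Day 1 control held it at 384, 333 and 331. ced-3 lay at 511, 703 and 611 in L4 control and at 1059, 1057 and 1032 in Day 1 control. ced-6 lay at 107, 160.3 and 167 in L4 control and at 295, 269.7 and 270.1 in Day 1 control. For these genes no library of one stage overlapped the other. With limma voom, all 3 passed the Benjamini-Hochberg (BH) threshold of 0.05: ced-9 rose by 0.77 (SE 0.196, adjusted p = 0.00798), ced-3 by 0.86 (SE 0.184, adjusted p = 0.00259) and ced-6 by 1.09 (SE 0.249, adjusted p = 0.00415) on the log2 scale. That is 3 of 10 members, all higher, where 20.9% of all genes tested were called in either direction and 5.42% higher. All 3 calls depend on L4 control library a; without it their adjusted p were 0.0873, 0.0917 and 0.139. Other cells' genes moved between these stages too. Oocyte genes (9 resolved in each library) took 0.189 to 0.376% of reads in L4 control and 0.714 to 0.757% in Day 1 control, sperm genes 0.0429 to 0.0856% and 0.00322 to 0.00394%, and muscle genes 0.191 to 0.292% and 0.0170 to 0.0454%; their part in the 3 calls was not tested. Between Day 1 and Day 2 control, limma voom called 0 of 10 members (0 at an unadjusted p under 0.05; 0.00854% of all genes called).

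RNAi against the P granule genes went with less ced-9 and more ced-1 at Day 1, and with less cep-1, ced-9 and ced-3 at Day 2. In the authors' deposited table, with adjusted p under 0.05 as a call, 0 of 9 tested members were called at L4, where 0.201% of all genes were called (0.119% higher and 0.0824% lower), and limma voom on the recovered reads also gave 0 (0 at an unadjusted p under 0.05; 0.0299% of all genes). At Day 1 the authors' deposited table called 4 of 9 members, 3 lower and 1 higher, against 29.8% of all genes (10.4% lower and 19.4% higher). In Day 2 GFP-negative gonads it called 7 of 10, 5 lower and 2 higher, against 59.7% of all genes (21.5% lower and 38.2% higher). In Day 2 GFP-positive gonads it called 7 of 10, 6 lower and 1 higher, against 67.8% of all genes (23.5% lower and 44.3% higher). On the scale of the averages limma voom called 2 of 10 at Day 1, 1 higher and 1 lower, against 16.5% of all genes (12.3% higher and 4.24% lower). It called 6 of 10 in GFP-negative gonads, 2 higher and 4 lower, against 46% (32.8% higher and 13.2% lower). In GFP-positive gonads it called 8 of 10, 4 higher and 4 lower, against 62.4% (46.5% higher and 15.9% lower). The split into higher and lower members there depends on the scaling. With TMM scaling (trimmed mean of M values) limma voom also called ced-4 (-0.40, adjusted p = 0.0242) and ced-7 (-0.43, adjusted p = 0.00193) lower, as the deposited table did. Members whose libraries did not overlap between the groups numbered 0 of 9 at L4 (9.45% of all genes), 6 of 9 at Day 1 (48.4%), 7 of 10 in GFP-negative (69.3%) and 8 of 10 in GFP-positive gonads (77.7%). At Day 2 these shares lay near those of all genes. The Day 2 comparisons share their control libraries. The median deposited log2 fold change of the tested members was -0.37 in GFP-negative gonads and -0.60 in GFP-positive ones, while that of all genes tested was 1.3 and 2.08, and at Day 1 these medians were -0.38 and 0.26. With limma voom on the scale of the averages the members' medians were -0.17 and -0.10 at Day 2, nearer 0, against 0.94 and 1.54 for all genes. At Day 1 they were -0.31 against 0.65. The deposited medians of all genes cover 12910 genes at Day 1, 18817 for GFP-negative and 20325 for GFP-positive gonads. Reads fell on 17440 genes in Day 2 control and on 23388 and 25677 in those RNAi groups. Genes without control reads cannot fall, while all members but ced-13 had reads in every group. The part of this choice of genes in the gap between members and all genes was not tested. The labels do not say that the libraries of a group came from separate cultures, so p-values measure the spread between these samples, and in whole gonads fewer cells of a type and less RNA per cell cannot be told apart.

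**Figure D2:**
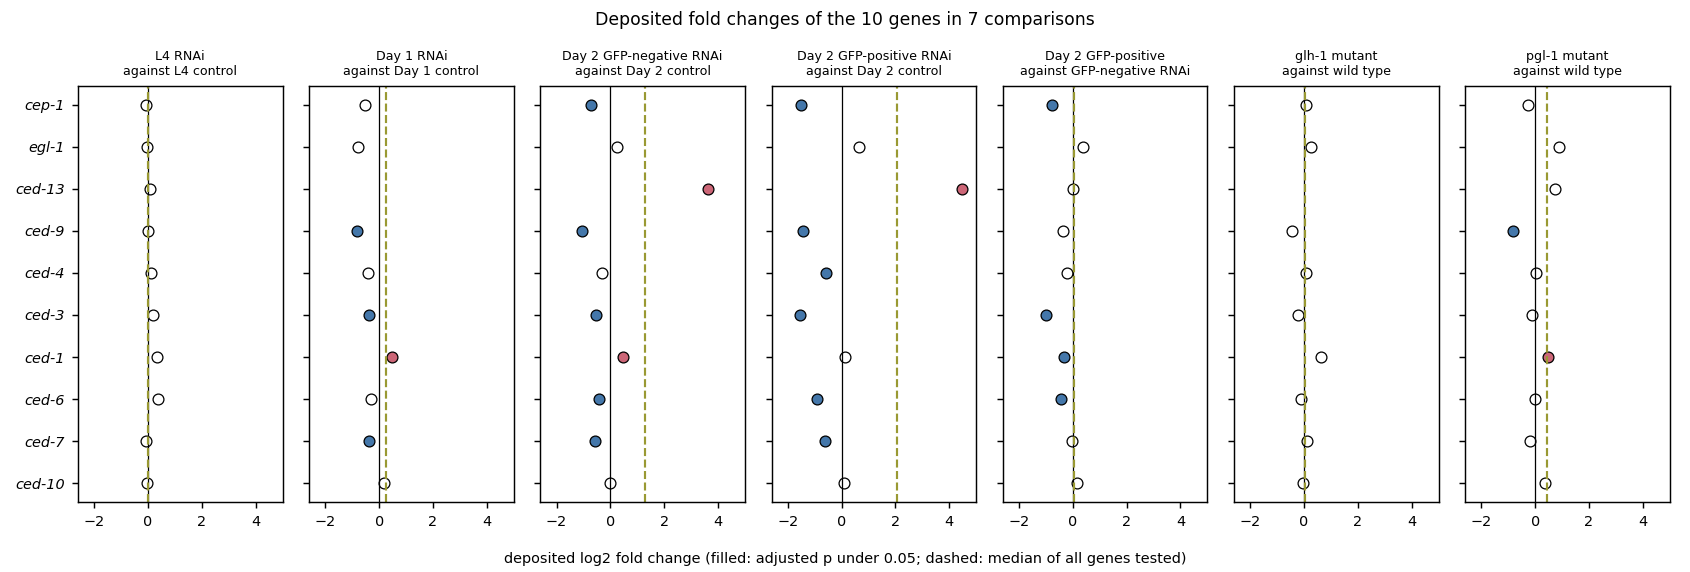
Log2 fold change of each member in the authors' deposited table for the 7 comparisons, with filled points for an adjusted p under 0.05 (blue lower, red higher) and the median of all genes tested as a dashed line. Among the adult RNAi comparisons against control, ced-9 is lower in each (-0.81 at Day 1, -1.07 in Day 2 GFP-negative, -1.44 in Day 2 GFP-positive), and ced-1 is not lower in any. The dashed line rests on a different set of genes in each comparison, which can include genes without control reads.

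Of the genes that start the process, cep-1, which encodes the p53 relative, was lower in Day 2 RNAi gonads. It lay at 293, 329.5 and 456 normalized reads in Day 2 control libraries a, b and c, at 262, 247 and 241 in GFP-negative and at 168, 192 and 165 in GFP-positive RNAi libraries. The RNAi libraries were all below the controls, and the GFP-positive ones all below the GFP-negative ones. The deposited log2 fold change of the authors' deposited table was -0.71 (BH adjusted p = 0.00021) in GFP-negative gonads and -1.49 (BH adjusted p = 5.21e-15) in GFP-positive ones. With limma voom on the same recovered reads cep-1 fell by 0.47 (SE 0.146) and by 1.00 (SE 0.159). The GFP-negative call rests on Day 2 control library c, the highest of the 3, without which the fall of 0.30 had an adjusted p of 0.0569. At Day 1 cep-1 lay at 259, 262 and 213 in RNAi and at 353, 376 and 270.1 in control, and the adjusted p of the authors' deposited table was 0.0697.

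egl-1, the BH3-only gene that starts most somatic deaths and the damage-induced germ cell deaths, had 2 to 72 reads per library, so its counting error is large. In Day 2 gonads it lay at 13.2, 16.9 and 16.7 normalized reads in control, at 14.9, 30.8 and 17.6 in GFP-negative and at 31.4, 34.8 and 33.97 in GFP-positive libraries. Every GFP-positive library was above every control library, on the scale of the group averages and on that of the deposited comparison. In the authors' deposited table the log2 fold change of 0.63 missed the threshold (BH adjusted p = 0.0543). limma voom gave 1.1 (SE 0.35, adjusted p = 0.00999) on the scale of the averages, 0.79 (adjusted p = 0.0688) with TMM and 1.03 (adjusted p = 0.0175) with total reads, so the call depends on the scaling. At Day 1 the RNAi libraries (13.5, 20.2 and 6.86) overlapped the controls (16.4, 45.4 and 15.2), with an adjusted p of 0.361 in the authors' deposited table.

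ced-13, the second BH3-only gene and a target of CEP-1 after irradiation, had 0 reads in all 9 control libraries of the RNAi part. In GFP-negative Day 2 libraries it had 2, 8 and 3 reads (1.03, 4.41 and 2.20 normalized reads), and in GFP-positive libraries 7, 6 and 4 reads (3.05, 3.43 and 2.77). All 6 Day 2 RNAi libraries held reads of it and none of the Day 2 controls did. Against a floor of 3 reads over the control group, ced-13 was at least 5.31-fold higher in GFP-negative and at least 6.48-fold higher in GFP-positive gonads. The authors' deposited table called it higher in both (BH adjusted p = 0.0104 and 0.00971), as did limma voom (adjusted p = 0.0011 and 0.000132). Day 1 RNAi libraries, which are shallower, had 0 reads, and at L4 RNAi library b held 2 reads. Of the GFP-negative reads 8 lie in library b; without it 5 reads remain and the bound is 3.16-fold. The floor covers the counting error of the controls only, and the RNAi reads are taken as counted.

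ced-9, the inhibitor at the centre of the pathway, was lower in each adult RNAi group. At Day 1 it lay at 214, 173 and 244 normalized reads in RNAi libraries against 384, 333 and 331 in control. At Day 2 the control libraries lay at 380.2, 355 and 333, the GFP-negative at 175, 213 and 194 and the GFP-positive at 176, 178 and 189. No RNAi library reached the lowest control library. In the authors' deposited table the log2 fold changes were -0.81 (BH adjusted p = 0.00108) at Day 1, -1.07 (2.05e-13) in GFP-negative gonads and -1.44 (1.66e-22) in GFP-positive ones. limma voom gave falls of 0.82 (SE 0.174), 0.89 (SE 0.127) and 0.99 (SE 0.127). These calls held in all 11 alternatives tried at Day 1 and in all 10 tried for each Day 2 group. Between the Day 2 RNAi groups ced-9 was not called (deposited -0.34 by the authors' deposited table, BH adjusted p = 0.0665).

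ced-3, the caspase, showed its lowest level in GFP-positive gonads. Day 2 control libraries lay at 1067, 1044 and 1099 normalized reads, GFP-negative at 796, 807 and 907 and GFP-positive at 489, 488 and 526. The 3 groups did not overlap. In the authors' deposited table ced-3 fell by 0.54 (BH adjusted p = 1.46e-05) in GFP-negative gonads and by 1.56 (7.83e-40) in GFP-positive ones against control, and by 0.98 (7.22e-13) in GFP-positive against GFP-negative gonads. The GFP-positive calls held in all 10 alternatives of either comparison, and the GFP-negative call in 9 of 10. At Day 1 the RNAi libraries (901, 848 and 789) lay below the controls (1059, 1057 and 1032), and the deposited fall of 0.37 (a BH adjusted p of 0.0287 by the authors' deposited table) was lost in all 11 alternatives. ced-4, the activator of the caspase, lay at 207, 211 and 207 normalized reads in GFP-negative, at 219.8, 196 and 218 in GFP-positive and at 199, 209.6 and 279 in Day 2 control libraries. On this scale the groups overlapped. The authors' deposited table, which scales each comparison apart, called ced-4 lower in GFP-positive gonads (-0.57, BH adjusted p = 0.00146); limma voom on the scale of the averages gave -0.09 (adjusted p = 0.562), and without Day 2 control library c its sign turned to 0.06.

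Among the engulfment genes ced-1, the receptor that recognises corpses, was higher in all adult RNAi libraries on the scale of the averages. At Day 1 it lay at 1000.2, 926 and 1050.1 normalized reads in RNAi libraries against 654, 684 and 710.1 in control. At Day 2 it lay at 727, 718 and 596 in control, at 1088, 1096 and 1059.5 in GFP-negative and at 1176, 949.8 and 961 in GFP-positive libraries. Every adult RNAi library was above every control library of its day. The authors' deposited table called ced-1 higher at Day 1 (0.47, BH adjusted p = 0.00287) and in GFP-negative gonads (0.47, 0.000681), but not in GFP-positive gonads (0.13, 0.436). limma voom on the scale of the averages gave 0.54 (SE 0.146, adjusted p = 0.0143), 0.67 (SE 0.0996, adjusted p = 2.53e-05) and 0.61 (SE 0.0992, adjusted p = 2.26e-05). The Day 1 call was lost with TMM scaling (0.41, adjusted p = 0.102) and without Day 1 control library a or Day 1 RNAi library a.

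The partners of ced-1 took other directions. ced-6, the adaptor that binds the tail of CED-1, lay at 319, 313 and 304 normalized reads in Day 2 control, at 264, 271 and 259.8 in GFP-negative and at 236, 234 and 220.5 in GFP-positive libraries, and the 3 groups did not overlap. The authors' deposited table called it lower in both (-0.42, BH adjusted p = 0.00143, and -0.90, 2.35e-11); with limma voom the GFP-positive call held in all 10 alternatives and the GFP-negative call was lost in 9 of 10. ced-7, the transporter that acts with CED-1, ranged from 1064 to 1216 in GFP-negative and from 1211 to 1441 in GFP-positive libraries, against 1267 to 1802 in Day 2 control. Its deposited fall in GFP-positive gonads (0.62 by the authors' deposited table, BH adjusted p = 0.000213) was a fall of 0.11 with limma voom on the scale of the averages (adjusted p = 0.353) and turned to a rise of 0.04 without Day 2 control library c. Its deposited falls in GFP-negative gonads (0.57, BH adjusted p = 0.000462) and at Day 1 (0.38, 0.0423) by the authors' deposited table held in 8 of 10 and in 1 of 11 alternatives. ced-10, the GTPase where the engulfment routes meet, lay at 247, 257 and 283 in Day 2 control, at 282, 306 and 296 in GFP-negative and at 364, 416 and 389.7 in GFP-positive libraries. The GFP-positive libraries were all above the others on this scale, and on the deposited scale they overlapped the controls (0.11 by the authors' deposited table, BH adjusted p = 0.468).

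Marker genes of several cell types moved beside the members. A list of 12 genes joined genes used here for the gonadal sheath, the engulfing cells, with others used for the rest of the somatic gonad. Whether other cells also gave reads of these genes was not tested. These genes took 0.147 to 0.169% of reads in Day 2 control, 0.363 to 0.413% in GFP-negative and 0.402 to 0.545% in GFP-positive libraries, with none of the 12 at 0. The part of sheath cells in this rise was not tested. The authors' deposited table called 10 of these 12 higher and 1 lower in GFP-negative gonads, and 11 and 1 in GFP-positive gonads. The gene called lower was fln-1 in both. For this and the other marker lists, the shares of all genes called higher and lower were 38.2% and 21.5% in GFP-negative gonads. In GFP-positive gonads they were 44.3% and 23.5%. The largest rises in GFP-positive gonads were those of let-2, plc-1, gon-1 and emb-9. In GFP-positive against GFP-negative gonads the deposited table called 5 higher and 2 lower, fln-1 and inx-8 (19.4% and 18.6% of all genes). Genes of meiotic prophase germ cells took 0.111 to 0.140% in Day 2 control, 0.0724 to 0.0841% in GFP-negative and 0.0377 to 0.0464% in GFP-positive libraries, and the authors' deposited table called 8 and 10 of these 10 lower. The 9 oocyte genes resolved in each library took 0.736 to 0.790%, 0.575 to 0.607% and 0.353 to 0.435% of reads in the same groups. Neuron genes took 0.0114 to 0.0127% in control, 0.0365 to 0.0473% in GFP-negative and 0.0960 to 0.118% in GFP-positive libraries. The neuron list holds unc-119, whose promoter drives the GFP by which the Day 2 RNAi gonads were sorted. The level in GFP-positive gonads is therefore not independent of the sorting. The hypodermis list holds rol-6, the marker of the same array. The 8 intestine genes resolved in each library, without the yolk genes vit-2 and vit-6, took 0.0133 to 0.0147% in control. They took 0.0836 to 0.112% in GFP-negative and 0.104 to 0.129% in GFP-positive libraries. In GFP-positive gonads the authors' deposited table also called higher 9 of 10 sperm, 9 of 9 tested muscle, 9 of 10 hypodermis and 3 of 3 coelomocyte genes. The remaining sperm gene, spe-44, and hypodermis gene, bli-1, were called lower. Of 10 oocyte genes it called 9 lower and 1 higher, perm-2, in either Day 2 RNAi group. At Day 1 the sheath and somatic gonad genes took 0.156 to 0.168% in control and 0.274 to 0.327% in RNAi libraries, and the meiotic genes 0.112 to 0.127% and 0.0799 to 0.0950%. In the same Day 1 groups sperm genes took 0.00322 to 0.00394% and 0.0393 to 0.0971%, the 9 oocyte genes 0.714 to 0.757% and 0.430 to 0.602%, and the 8 intestine genes 0.00682 to 0.0263% and 0.0284 to 0.125%. The part of these shifts in the higher ced-1 and the lower ced-9, ced-3 and cep-1 was not tested. In the authors' own gene categories ced-1 and ced-7 are marked ubiquitous, cep-1 and ced-4 germline-enriched, and the other 6 members carry no mark.

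The scaling decides several of the Day 2 calls. The deposited comparisons were scaled apart, which shifts every gene by -0.19 in GFP-negative, -0.46 in GFP-positive and -0.25 in GFP-positive against GFP-negative gonads (log2) relative to the scale of the group averages. Against Day 2 control, ced-9 and ced-13 were called in both RNAi groups under the deposited scaling and under limma voom with the scale of the averages, TMM and total reads, and so were ced-1 in GFP-negative and cep-1, ced-3 and ced-6 in GFP-positive gonads. In GFP-positive gonads ced-1 was called higher with the averages' scale, TMM (0.30, adjusted p = 0.0469) and total reads (0.54, adjusted p = 0.000154) in limma voom, and ced-10 with the averages' scale (0.57, SE 0.0896, adjusted p = 1.7e-05) and total reads (0.50, adjusted p = 0.000287) but not with TMM (0.26, adjusted p = 0.0637). ced-4 and ced-7 were called lower in GFP-positive gonads with the deposited scaling and TMM alone. With total reads, limma voom called cep-1, ced-3 and ced-7 no longer lower in GFP-negative gonads (adjusted p = 0.109, 0.121 and 0.16), and ced-4 in these gonads changed sign (-0.27 with TMM, 0.03 with total reads, neither called).

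**Figure D3:**
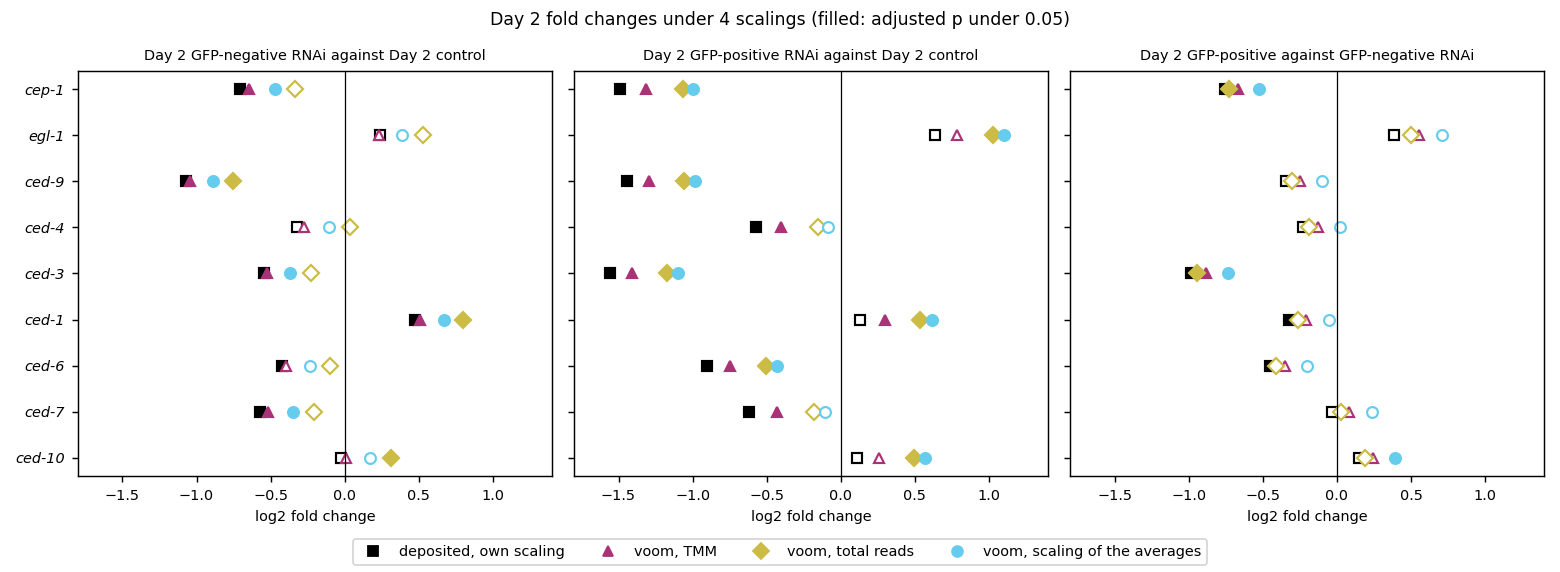
Log2 fold change of 9 members (ced-13, with 0 reads in control, is not drawn) in the Day 2 comparisons under the deposited scaling and under limma voom with TMM, total reads and the scale of the averages; filled symbols have an adjusted p under 0.05. ced-9 stays left of 0 and ced-1 right of 0 under all 4 in both comparisons with control, while ced-4 and ced-10 cross 0 in GFP-negative gonads.

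The 2 kinds of Day 2 RNAi gonad were also compared with each other. The authors' deposited table called 4 of 10 members lower in GFP-positive than in GFP-negative gonads and 0 higher, where 38% of all genes were called (18.6% lower and 19.4% higher). limma voom called 3 of 10 (20.9% of all genes), and the libraries of 5 of 10 did not overlap (53.3%). The 4 members called in the authors' deposited table were cep-1 (-0.76, BH adjusted p = 7.84e-06), ced-3, ced-1 (-0.32, 0.0249) and ced-6 (-0.45, 0.00506). Of these, ced-3 and cep-1 were also called with limma voom under all 3 scalings, although cep-1 was lost in 5 of the 6 fits that left out 1 library. ced-1 was not called with limma voom under any of the 3 (-0.05 to -0.26) and turned to 0.01 without GFP-positive library b, and ced-6 was not called either. ced-10 was called higher with limma voom on the averages' scale (0.39, SE 0.0915, adjusted p = 0.00339) but not with TMM (adjusted p = 0.171) or total reads (adjusted p = 0.251).

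Ratios of the reads of 2 members within a library do not depend on the scaling, and they are given as a description. For each library, ced-1 reads were divided by ced-9 reads, without regard to length. The ratio was 1.91, 2.02 and 1.79 in Day 2 control, 6.22, 5.15 and 5.46 in GFP-negative and 6.68, 5.35 and 5.08 in GFP-positive libraries. At Day 1 it was 1.70, 2.06 and 2.15 in control and 4.68, 5.35 and 4.31 in RNAi libraries, and at L4 2.02, 2.84 and 2.49 in control and 3.47, 3.01 and 3.51 in RNAi libraries. The RNAi libraries were above the controls of their stage at all 3 stages. This pair joins a member called higher in adult RNAi gonads with one called lower, so its separation is no test. The share of other gene pairs that separate was not computed. At L4 neither gene was called and the libraries of each overlapped, so no RNAi effect at L4 is read from the ratio. The ratio of egl-1 to ced-9 reads was 0.0442 ± 0.00839 in Day 2 control, 0.107 ± 0.0331 in GFP-negative and 0.185 ± 0.01 in GFP-positive libraries (SD, n = 3), and the 3 groups did not overlap. In L4 control it was 0.142 ± 0.0520 (SD, n = 3), with 1 library at 0.188, a level within the GFP-positive range. The ratio of ced-4 to ced-9 reads was 0.650 ± 0.166, 1.08 ± 0.0973 and 1.17 ± 0.0734 in these groups. The ratio of ced-3 to ced-9 reads went up and then down, from 3.02 ± 0.253 in control to 4.34 ± 0.476 in GFP-negative and 2.77 ± 0.0172 in GFP-positive libraries. Among the engulfment genes, the ratio of ced-10 to ced-6 reads was 0.843 ± 0.0802, 1.11 ± 0.0394 and 1.70 ± 0.136 in the same groups.

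**Figure D4:**
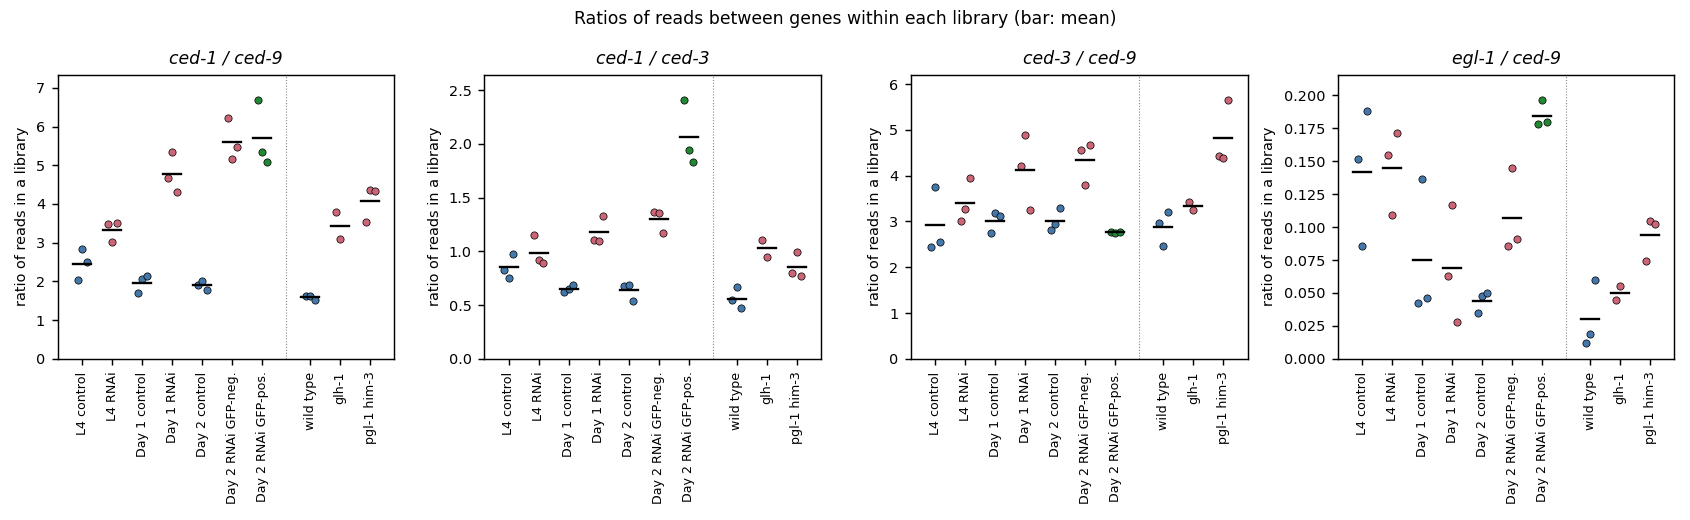
Ratios of reads between pairs of members within each library, by group, with 1 point per library and the mean as a horizontal line; values with ± give the SD. The ratio of ced-1 to ced-9 reads lies at 1.91 ± 0.116 in Day 2 control and at 5.61 ± 0.549 and 5.70 ± 0.856 in the Day 2 RNAi groups, and at 1.59 ± 0.0556 in wild type against 4.08 ± 0.477 in the pgl-1 mutant.

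In the mutant strains, compared at Day 1 with the same wild-type libraries, ced-9 fell and ced-1 rose in the strain that carries pgl-1(ct131) and him-3(e1147), called pgl-1 here. Effects of its 2 alleles cannot be told apart. ced-9 lay at 254, 315 and 262 normalized reads in wild type, at 202 and 197 in glh-1 and at 162, 160.2 and 139 in pgl-1 libraries. The 3 genotypes did not overlap. ced-1 lay at 410.4, 514 and 401 in wild type, at 763 and 606 in glh-1 and at 571, 700.2 and 601 in pgl-1 libraries. Both mutants lay above wild type in every library. The authors' deposited table called 2 of 9 tested members in the pgl-1 mutant, ced-9 lower (-0.84, BH adjusted p = 0.000502) and ced-1 higher (0.49, 0.0406), where 31.1% of all genes were called (8.84% lower and 22.3% higher). limma voom also called 2 of 9 (32.6% of all genes), and the libraries of 3 of 9 did not overlap (48.2%). The ced-9 call held in all 10 alternatives, and the ced-1 call was lost in 6 of 10, TMM scaling (limma voom 0.43, adjusted p = 0.0789) and the removal of wild-type library a or c or pgl-1 library b or c among them. In the glh-1 mutant the authors' deposited table called 0 of 9 members (9.15% of all genes, 6.68% higher and 2.47% lower), with ced-1 at 0.62 (BH adjusted p = 0.0655) and ced-9 at -0.45 (0.245). limma voom called 1 of 9 there, ced-1 (0.67, SE 0.187, adjusted p = 0.0452; 6.91% of all genes), and 2 had an unadjusted p under 0.05, ced-1 and ced-9. The libraries of 3 of 9 did not overlap (44.7% of all genes). The 2 mutants compared directly gave 0 of 9 calls with limma voom (0 at an unadjusted p under 0.05; 0.323% of all genes).

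**Figure D5:**
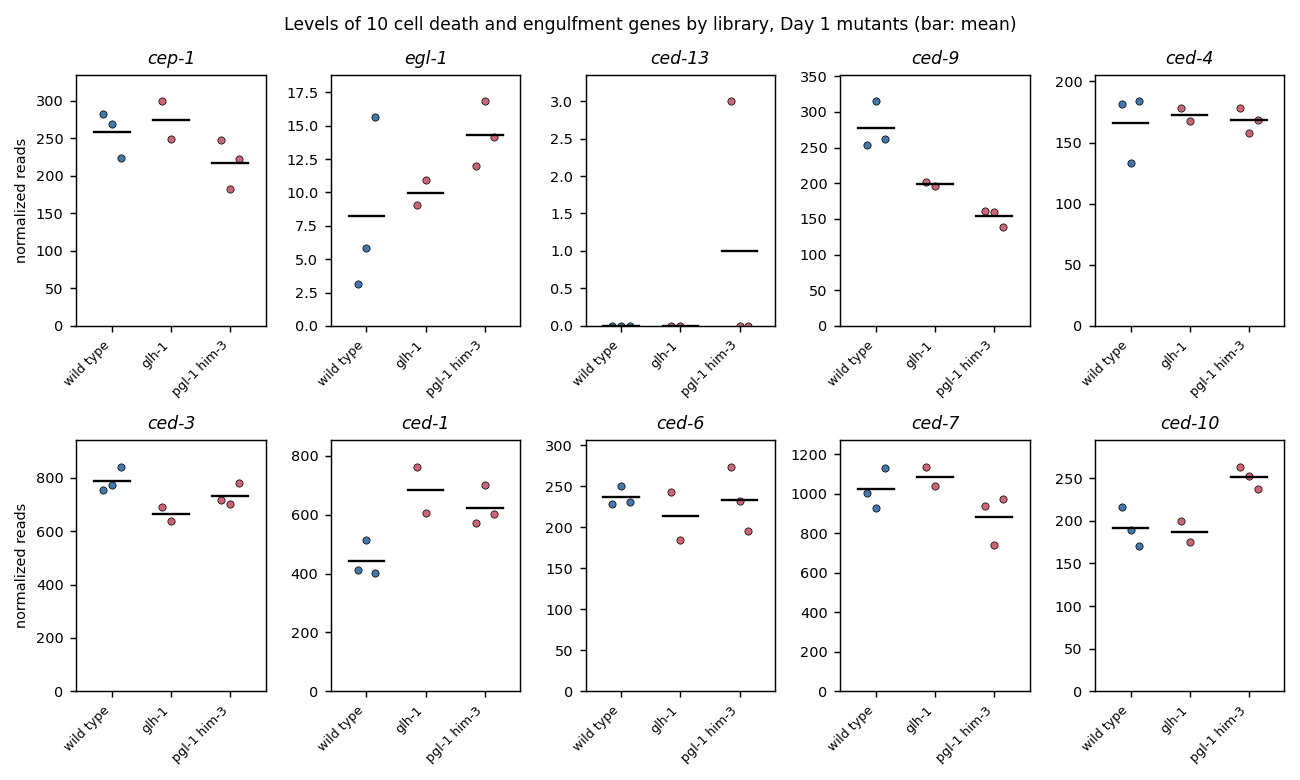
Normalized reads of each member in wild type (n = 3), the glh-1 mutant (n = 2) and the pgl-1 mutant (n = 3), with 1 point per library and the mean as a horizontal line; values with ± give the SD. ced-9 steps down from 277 ± 32.9 over 199 ± 3.59 to 154 ± 12.9, and ced-1 lies at 442 ± 63.0 in wild type, 684 ± 111 in glh-1 and 624 ± 67.8 in pgl-1.

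The other members did not pass the test in either mutant in the authors' deposited table. ced-3 lay at 756, 773 and 842 normalized reads in wild type, at 689.9 and 637 in glh-1 and at 715, 702 and 782 in pgl-1 (a BH adjusted p of 0.495 and 0.619 by the authors' deposited table). ced-10 lay at 216, 189 and 170.1 in wild type and at 264, 253 and 238 in pgl-1, all higher, with a log2 fold change of 0.37 (a BH adjusted p of 0.139 by the authors' deposited table). egl-1 lay at 3.14, 5.84 and 15.7 in wild type, at 9.05 and 10.9 in glh-1 and at 11.98, 16.8 and 14.1 in pgl-1, and wild-type library c overlapped both mutants. In pgl-1, limma voom called ced-10 higher with total reads (0.64, adjusted p = 0.0317) and egl-1 higher without wild-type library c (1.66, adjusted p = 0.0496), and neither otherwise. ced-13 had 6 reads in pgl-1 library a and 0 in the other 7 libraries. Sheath and somatic gonad genes took 0.138 to 0.163% of reads in wild type, 0.184 to 0.196% in glh-1 and 0.161 to 0.216% in pgl-1 libraries, and meiotic genes 0.114 to 0.133%, 0.106 to 0.122% and 0.0837 to 0.106%. Intestine genes took 0.283 to 0.401%, 0.464 to 1.84% and 1.1 to 1.69%, and sperm genes 0.00220 to 0.00361%, 0.00346 to 0.00691% and 0.00721 to 0.0165% in the same groups. The authors' deposited table called 8 of 12 sheath and somatic gonad, 9 of 10 intestine and 7 of 10 sperm genes higher in pgl-1 (22.3% of all genes). It called 7 of 10 meiotic genes lower (8.84% of all genes). Among these meiotic genes is him-3, of which this strain carries an allele. The part of these marker shifts in the ced-9 and ced-1 calls was not tested.

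Whether the RNAi effect itself differed between stages was tested with an interaction term in limma voom. Between L4 and Day 1, 0 of 10 members passed (4.69% of all genes did), with 2 at an unadjusted p under 0.05. These were ced-9, whose RNAi effect was lower at Day 1 by 0.70 (SE 0.283, adjusted p = 0.185), and ced-6, lower by 0.78 (SE 0.332, adjusted p = 0.214). L4 RNAi library a, whose marker genes stand apart as given above, decides this test. In the L4 RNAi libraries, from a to c, ced-3 lay at 431, 794 and 868 normalized reads and ced-6 at 133, 258 and 214. Without library a the difference passed for ced-9 (-0.99, adjusted p = 0.00938), ced-3 (-0.79, adjusted p = 0.00184) and ced-6 (-1.13, adjusted p = 0.0081), and at L4 alone limma voom then called ced-3 (0.50, adjusted p = 0.0426) and ced-6 (0.86, adjusted p = 0.0491) higher with RNAi. These fits kept L4 control library a, which also stands apart and held the least ced-3 (511 against 703 and 611) and ced-6 (107 against 160.3 and 167) of its group. A fit without both libraries a was not run, so no RNAi effect at L4 is read from these calls. Between Day 1 and Day 2 GFP-negative gonads 0 of 10 effects differed with limma voom (0.00427% of all genes), with 1 at an unadjusted p under 0.05, ced-13 (2.95, SE 1.08, adjusted p = 0.612). Within RNAi gonads limma voom called 0 of 10 members from L4 to Day 1 (2 at an unadjusted p under 0.05, ced-3 and ced-1; 0.35% of all genes) and 0 of 10 from Day 1 to Day 2 GFP-negative (1, ced-13; 0.128% of all genes).

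Other genes of the process were read from lists, by their deposited calls. Of 24 DNA damage checkpoint and repair genes, the authors' deposited table called 0 higher in any comparison, and lower 9 at Day 1, 23 in Day 2 GFP-negative and 23 in GFP-positive gonads, with median log2 fold changes of -0.45, -0.62 and -1.24, where 10.4%, 21.5% and 23.5% of all genes were called lower. It called 17 lower in GFP-positive against GFP-negative gonads (18.6% of all genes), 6 lower in pgl-1 (8.84%) and 0 in glh-1 (2.47%). Genes of the checkpoint clamp and its loader were among them. In GFP-negative gonads hus-1 lay at 53.3 ± 1.99 normalized reads against 106 ± 23.4 in control (SD, n = 3 each), and in GFP-positive gonads hpr-17 lay at 67.3 ± 6.30 against 258 ± 36.4. With limma voom under the 3 scalings, 11 to 21 of the 24 were called lower in GFP-negative and 19 to 22 in GFP-positive gonads, and 1 higher in GFP-positive gonads on the averages' scale.

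Of 26 regulators of germ cell death in the table, the authors' deposited table called 3 higher and 11 lower at Day 1, and 6 higher and 18 lower in either Day 2 RNAi group. Of all genes it called 19.4% higher and 10.4% lower at Day 1, 38.2% and 21.5% in GFP-negative and 44.3% and 23.5% in GFP-positive gonads. The zinc finger gene gla-3, which limits germ cell death, lay at 512 ± 63.0 normalized reads in GFP-negative gonads, 185 ± 59.5 in GFP-positive gonads and 1117 ± 20.5 in Day 2 control. The translational repressor gld-1 lay at 2321 ± 300.5 and 1022 ± 288 against 5126 ± 125. The kinase genes akt-2 (152 ± 12.1 against 8.45 ± 4.50) and pmk-3 (291 ± 33.3 against 11.1 ± 3.33) rose in GFP-positive gonads (a BH adjusted p of 1.13e-33 and 9.11e-65 by the authors' deposited table). In the mutants the authors' deposited table called 2 higher and 2 lower of 25 tested in glh-1 (6.68% and 2.47% of all genes) and 5 and 5 of 26 in pgl-1 (22.3% and 8.84%).

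Of 29 other engulfment and clearance genes, the authors' deposited table called 4 higher and 1 lower at Day 1, 12 and 8 in Day 2 GFP-negative, 14 and 12 in GFP-positive gonads, and 8 and 0 in the pgl-1 mutant. The shares of all genes called higher and lower were 19.4% and 10.4%, 38.2% and 21.5%, 44.3% and 23.5%, and 22.3% and 8.84%, so the GFP-negative counts lie near those of all genes. nrf-5, which encodes a secreted lipid-binding protein, lay at 7.48 ± 2.93 in Day 1 control and 128 ± 30.2 in Day 1 RNAi, and at 3.95 ± 0.716 in Day 2 control against 212 ± 23.5 in GFP-negative gonads and 242 ± 51.1 in GFP-positive ones. nuc-1, the lysosomal DNase, and ina-1, an integrin alpha chain, also rose at Day 1 and in GFP-negative gonads. ced-5, the Dock protein gene that acts with ced-10, lay at 516 ± 32.2 in GFP-positive gonads against 981 ± 223 in Day 2 control, and psr-1, a receptor on the same route, at 160.3 ± 35.7 against 296 ± 13.7. By the authors' deposited table both fell (BH adjusted p = 1.37e-15 and 1.27e-12). The split depends on the scaling: in GFP-negative gonads limma voom with total reads called 13 higher and 2 lower. The kinase gene abl-1, an inhibitor of engulfment, lay at 495 ± 91.3 in GFP-positive and 95.2 ± 30.1 in GFP-negative gonads and rose in the former (a BH adjusted p of 1.32e-25 by the authors' deposited table).

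Of 18 genes for DNA breakdown and mitochondria in dying cells, the authors' deposited table called 2 higher and 1 lower at Day 1, 5 and 6 in Day 2 GFP-negative and 7 and 7 in GFP-positive gonads. Called in either direction were 29.8%, 59.7% and 67.8% of all genes in these comparisons; the Day 1 count, of 17 tested, lies below that share. ced-11, a TRPM-type channel gene, lay at 2.32 ± 1.34 normalized reads in Day 2 control, 19.2 ± 8.28 in GFP-negative gonads and 103 ± 28.1 in GFP-positive ones. The mitochondrial fission gene drp-1 fell in GFP-positive gonads (596 ± 12.9 against 943 ± 50.04, BH adjusted p = 3.3e-22 by the authors' deposited table), and so did wah-1, the AIF gene (335 ± 16.1 against 468 ± 33.4, 3.66e-11). At L4 the authors' deposited table called 0 of the genes of these 4 lists in either direction, and limma voom called 0 under each of its 3 scalings.

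Genes with a pattern like that of a member were found by Pearson's r of log2(average + 1) over the 7 RNAi-part group averages, among 10467 genes with a mean average of at least 10. Groups share libraries' scale and the RNAi contrast, so r is a description. Nearest to ced-1 were fog-1 (0.992), which directs germ cells to the sperm fate, tbc-1 (0.988) and mtl-1 (0.982), with 56 genes above 0.95. Nearest to ced-3 were spat-1, ced-5 and ceh-49 (each 0.996), with 272 genes above 0.95, and ced-5 is the Dock protein gene named above. Nearest to ced-9 were C09E7.8 (0.9994), ptc-1 (0.995) and ptc-2 (0.995), with 268 genes above 0.95. egl-1 had a single gene above 0.95, F53B1.2 (0.958), followed by F33A8.6 (0.937) and C01G12.1 (0.932).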

How the data were processed

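Total RNA from dissected gonads was depleted of ribosomal RNA and sequenced without strand marking. TopHat2 and DESeq2 were used, per the submitters' processing notes; their versions and the read counter, build and annotation were not given in the sources used here. Per the file headers, the deposited table holds for 7 comparisons a log2 fold change, a BH-adjusted p-value and a mean expression, and read count averages per group (a normalized signal, scaled by the authors for RNAi and mutant parts apart). Deposited categories are labels of 0 or 1, scored by the authors as membership. Deposited fold changes can differ from the ratio of averages.

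Whole reads per library were recovered from the averages (Python 3.11.15, numpy 2.4.6, numba 0.67.0), and gave back the deposited mean expression within a relative 1e-06 for 100% of 6717 to 10701 genes checked per comparison. Genes not resolved kept their group average in the depth, which is therefore an estimate. limma 3.58.1 (R 4.3.3) voom was fitted where some group averaged 1 normalized read or more (23425 genes for RNAi, 15187 for mutants), with BH adjustment over all of them. It was tested on simulated data. The 7 comparisons without deposited columns come from it. Exon lengths and overlaps come from the WBcel235 annotation, release 115; levels per kilobase use them. Figures were drawn with matplotlib 3.10.9.

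Calls use an adjusted p under 0.05. All 10 members are named. Other genes are up to 4 per list, comparison and direction with the largest deposited changes among those called, of which the text gives some, and the 3 nearest in pattern to ced-1, ced-3, ced-9 and egl-1. The members, lists and cell type markers were chosen with earlier results of these data known.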

Additional observations from a re-analysis of the deposited data

How the results depend on the processing

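Counts of members called were recomputed under a stricter threshold, limma voom, other filters, TMM scaling and with each library left out. Total-read scaling, TMM for the deposited comparisons and the fit without both Day 1 libraries c were chosen after seeing the data. At Day 1 the RNAi count of 4 became 2 under the 0.01 threshold, limma voom, TMM, total reads and without both libraries c, and 1 to 2 with a library left out. In Day 2 GFP-negative gonads 7 became 4 with total reads, 3 of the 7 and ced-10, newly called higher (0.31, adjusted p = 0.0269) (5 to 6 with a library left out). In GFP-positive against GFP-negative gonads 4 became 2 with TMM and total reads (2 to 3 with a library left out). The glh-1 count of 0 became 1 with limma voom, TMM and total reads (0 to 1), and the pgl-1 count of 2 became 1 at the 0.01 threshold and with TMM (1 to 2). From L4 to Day 1, the control count of 3 ran from 0 to 3 with a library left out (ced-1 was also called with TMM, total reads and a group mean of at least 10), and the RNAi count of 0 became 1 (ced-1) with total reads and with a group mean of at least 10. The L4 count ran from 0 to 2 and the count of RNAi effects that differ between L4 and Day 1 from 0 to 3, both highest without L4 RNAi library a and with L4 control library a kept. With a library left out, log2 fold changes in GFP-positive gonads ran from -0.19 to 0.0551 for ced-4 and from -0.20 to 0.0388 for ced-7, turning sign without Day 2 control library c. Between the Day 2 RNAi groups ced-1 ran from -0.18 to 0.0101, turning sign without GFP-positive library b. Without both Day 1 libraries c, ced-13 was called lower in Day 1 than in L4 control at 0 reads in both, so no change is read from it. The cause of these moves was not tested. The remaining counts stayed within 1.5 times the reported one.

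No paired analysis was possible because the table holds group averages whose recovered libraries carry no replicate numbers. edgeR was not run. Depth limits egl-1 and ced-13 most, with 2 to 72 and 0 to 8 reads per library.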
